A study of Danio rerio with 2 samples.

Results

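The remaining superficial epidermal cells of the larval zebrafish caudal fin fold are the cells that carried the genes of the outer skin layer but almost no UMIs (unique molecular identifiers, each standing for 1 captured mRNA molecule) of *krt99* or of the Rh genes *rhcga* and *rhbg*. A cell passed the epidermis gate when *cldne*, *evpla*, *agr1*, *anxa1c*, *scel* and *oclnb* together took at least 0.2% of its UMIs. A gated cell was a remaining cell when it held fewer than 2 UMIs of *krt99* and fewer than 2 UMIs of *rhcga* and *rhbg* summed. The rule took 151 of the 771 gated cells, out of 1640 cells in the series, with 106 remaining cells in the cut library and 45 in the uncut library. The other 620 gated cells held at least 2 UMIs of *krt99* only (71 cut and 135 uncut cells), of the Rh genes only (240 and 93 cells) or of both (23 and 58 cells).

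The conditions were cut and uncut. Cut fin folds came from larvae whose caudal fin was amputated with a scalpel under tricaine anaesthesia at 3 days post fertilization, and were collected at 24 h post amputation (hpA). Uncut fin folds were intact and collected at the same time. Each condition gave 1 Chromium 3' library from fin folds that were pooled and dissociated, so no difference between the conditions has a replicate check, and larvae cannot be told apart within a pool. The AB strain is named in the study's methods beside several transgenic lines, and none of them is tied there to these libraries by name. All intervals below are 95% counting intervals of these libraries, which cover counting error only and say nothing of the spread between larvae or libraries. Because the cells were chosen by their measured values, the comparisons with the other gated cells are descriptions.

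The larval fin fold is covered by a thin epidermis with an outer, superficial layer (periderm) over a basal layer. Superficial cells are sealed by tight junctions of claudins and occludins, carry keratin filaments and actin microridges, and form plakin-rich cell margins. Rh glycoproteins are channels for ammonia, which fish larvae excrete through the skin. Cyp1a, one of the genes proposed to mark the remaining cells, is a cytochrome P450 whose transcription is driven by the aryl hydrocarbon receptor, and Tfa is the iron carrier transferrin.

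To determine how far the limits depend on sequencing depth, total UMIs per cell were compared. The median remaining cell held 6902 UMIs (1519 to 25222) in cut and 9880 UMIs (2664 to 20484) in uncut fin folds, against 11074.5 and 13839 UMIs in the other gated cells. The Rh only cells were deeper still, with medians of 12025.5 and 19860 UMIs, and 27.4% of the cut remaining cells but 4.44% of the uncut ones held under 3000 UMIs. When each cell with at least 2000 UMIs was thinned to that number, which left out 85 cut cells, 10 of them remaining cells, and 0 uncut cells, 62.3% of the cut and 66.7% of the uncut *krt99* only cells, and 45.2% and 46.2% of the Rh only cells, fell under both limits. At that depth 467 gated cells met the rule, so cells of the other classes also met it when shallow.

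**Figure D1:**
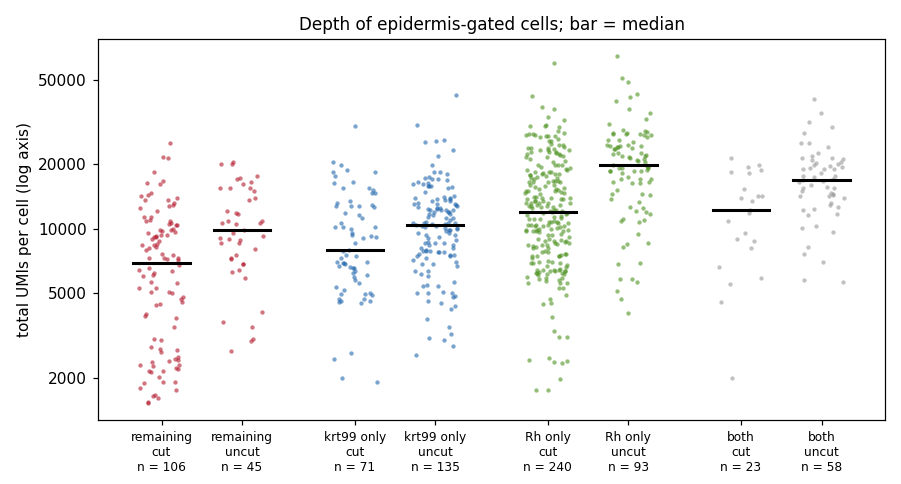
Total UMIs per cell (log axis) for the remaining, *krt99* only, Rh only and double-carrying gated cells, cut left of uncut in each pair, with 1 point per cell and a bar at the median. The remaining cells have the lowest median in both libraries, 6902 UMIs in cut and 9880 UMIs in uncut fin folds.

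Within the remaining cells, 70 of 106 cut and 23 of 45 uncut cells held no UMI of *krt99* and none of the Rh genes. A single *krt99* UMI was present in 18 cut and 18 uncut remaining cells, and a single Rh UMI in 19 and 7. Just outside the limits lay 17 cut and 30 uncut cells with exactly 2 *krt99* UMIs, and 30 cut and 3 uncut cells with exactly 2 Rh UMIs, each with fewer than 2 UMIs of the other. The lowest gate share of a remaining cell was 0.210% in cut and 0.218% in uncut fin folds, and the highest share outside the gate was 0.198% and 0.167%. The medians of the remaining cells, 0.675% and 0.570%, were well above the gate.

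**Figure D2:**
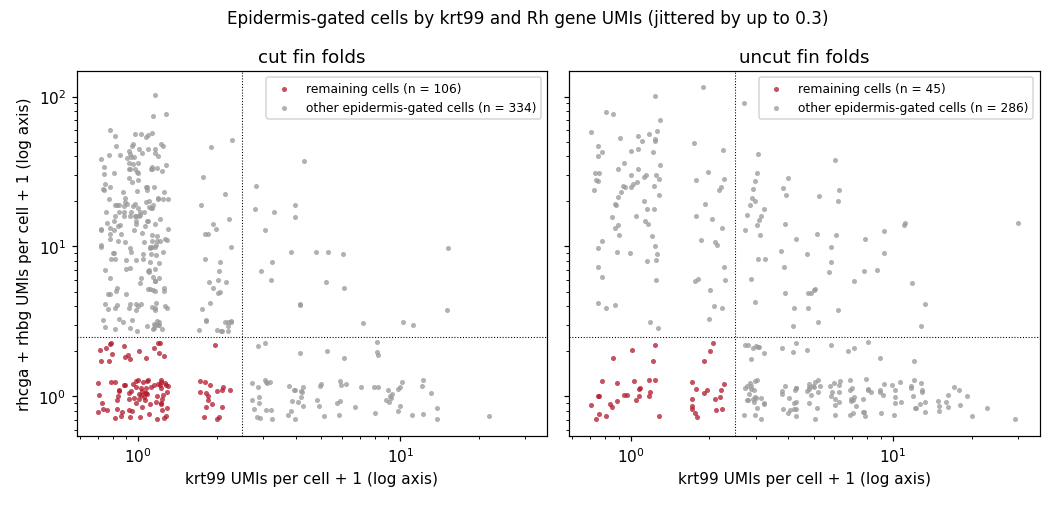
Each epidermis-gated cell by its *krt99* UMIs plus 1 (x, log axis) and its summed *rhcga* and *rhbg* UMIs plus 1 (y, log axis), jittered, for cut (left) and uncut (right) fin folds. The dotted lines mark the limit of 2 UMIs, and the 106 cut and 45 uncut remaining cells fill the lower left corner.

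The remaining cells took a larger share of the cut library. They made up 13.9% of all cut cells (interval 11.5 to 16.6) and 5.13% of all uncut cells (3.76 to 6.80). Among gated cells alone the shares were 24.1% (20.2 to 28.4) in cut and 13.6% (10.1 to 17.8) in uncut fin folds, as 57.7% of cut but 37.7% of uncut cells passed the gate. Depth moved with this difference. Among gated cells with at least 8000 UMIs, 16.4% (12.2 to 21.3) of cut and 11.8% (8.18 to 16.4) of uncut cells were remaining cells, with overlapping intervals, and after thinning to 2000 UMIs, in 420 cut and 329 uncut gated cells, the shares of gated cells were 61.0% (56.1 to 65.6) in cut and 64.1% (58.7 to 69.3) in uncut fin folds. After thinning no higher share was seen among cut gated cells, while the thinned shares of all cells were 37.8% in cut and 24.0% in uncut. Of the cells counted after thinning, however, 95 of 256 cut and 45 of 211 uncut cells were remaining cells at full depth. The rest were mostly cells of the other classes, so the thinned shares do not follow the remaining cells alone. Whether depth set the difference between the libraries was not tested. How dissociation and capture shaped these shares was not tested.

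The expression of the proposed markers was then examined, as UMIs per 1000000 UMIs (UPM) of the summed cells. *cldne*, a claudin of the superficial layer, was detected in 103 of 106 cut and 44 of 45 uncut remaining cells, at 2984 UPM and 2137 UPM, against 2428 and 2134 UPM in the other gated cells. *evpla*, which encodes an envoplakin, stood at 1246 UPM in cut and 1184 UPM in uncut remaining cells, against 989 and 1504 UPM in the others. Both belong to the gate, so their detection was set by the rule, as was their low level in the background below. In cells thinned to 2000 UMIs *cldne* had a UMI in 97.9% and 95.6% of remaining cells but in 2.2% and 0.63% of cells that carried mesenchymal genes and under 0.05% gate UMIs, used here as the background of free RNA. The 15 superficial keratin, junction and other marker genes outside the rule took 12.07% of the UMIs of cut and 14.7% of uncut remaining cells, against 19.1% and 19.5% in the other gated cells and 2.16% and 1.46% in the cells outside the gate.

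*cyp1a* was carried by a minority of remaining cells. It gave 89 UMIs in 24 of 106 cut cells (113 UPM) and 29 UMIs in 9 of 45 uncut cells (60.7 UPM), against 28.6 and 37.2 UPM in the other gated cells. No single cell held most of it, as the cell with most *cyp1a* held 10 of the 89 and 7 of the 29 UMIs. In thinned cells *cyp1a* was found in 13.5% of cut (interval 7.41 to 22) and 11.1% of uncut (3.71 to 24.1) remaining cells, against 5.49% and 5.24% of the other gated cells. Of the mesenchymal background cells, 0 of 91 cut and 0 of 318 uncut cells had a *cyp1a* UMI, which allows shares of up to 3.30% and 0.943%. *tfa* did not mark the remaining cells. It gave 6 UMIs in cut and 9 UMIs in uncut remaining cells (7.60 and 18.8 UPM), against 25.6 and 10.3 UPM in the other gated cells, while the Rh only cells stood at 32.8 and 19.0 UPM.

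Markers of other cell types were low, with exceptions. The 11 listed basal epidermal genes summed to 683 UPM in cut and 602 UPM in uncut remaining cells, against 5013 and 3367 UPM in the other gated cells, with *krt94* and *lamb4* at 0 in both libraries. The 12 mesenchymal genes summed to 3176 and 2148 UPM, against 1130 and 1696 UPM, but nearly all of it was *and2*, a protein of the actinotrichia fibres that stiffen the fin fold (3075 and 1889 UPM), while *twist1b*, *pdgfrl* and *col5a2a* were at 0 and 7 of 12 cut and 4 of 12 uncut genes had no UMI. The 10 myeloid genes summed to 465 and 295 UPM, against 249 and 271 UPM. There, 343 of 367 cut and 138 of 141 uncut UMIs were *cebpa*, a transcription factor also listed among epidermal regulators, and *lyz*, *mpx*, *spi1a* and *csf1ra* were at 0. The 12 apical epithelial cap genes summed to 501 UPM in cut and 171 UPM in uncut remaining cells, against 225 and 245 UPM, with *fgf8a*, *wnt3a*, *bmp2b* and *fn1b* at 0. Ionocyte genes were at 72.2 and 62.7 UPM, 10 of the 12 at 0, and muscle, erythrocyte and endothelial genes each summed to at most 31.4 UPM.

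A few of these genes were concentrated in 4 cut cells. Among the cut remaining cells, 4 held at least 3 summed UMIs of *mmp9*, *mmp13a*, *coro1a*, *lcp1*, *spi1a*, *spi1b* and *mpeg1.1*, and no uncut remaining cell did. Together these 4 cells held 44 of the 45 cut *mmp9* UMIs, all 16 of *mmp13a*, 10 of 11 of *coro1a*, all 9 of *spi1b* and 130 of 155 of *apoeb*. Of these genes only *apoeb* was not used to pick the cells, so the concentration of the others was set by that choice. Each of them had UMIs in only 2 of the 4 cells. *mmp9* and *mmp13a* encode matrix metalloproteinases, *coro1a* and *spi1b* are leukocyte genes, and *apoeb* encodes an apolipoprotein. Other listed genes were not concentrated there, as 232 of 248 cut *sp9* UMIs lay outside these cells. Scrublet called 1 remaining cell a doublet, of 0 cut and 5 uncut doublets among all cells, which leaves doublets in the cut library unassessed. No barcode was shared between the libraries.

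The whole profile of the remaining cells was close to that of the other superficial classes. Across 3383 genes the summed log UPM of the remaining cells correlated with the *krt99* only cells at r = 0.96 in cut and 0.95 in uncut fin folds and with the Rh only cells at 0.96 and 0.95, against 0.76 and 0.72 for the cells outside the gate. With the double-carrying cells r was 0.948 in cut and 0.961 in uncut, the highest of the classes in uncut. These correlations run across genes of the same 2 libraries, and genes are not independent replicates.

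Which genes set the remaining cells apart was asked in each library separately, over 3392 genes with at least 200 UMIs in gated cells. Only 6 genes were over 2-fold higher than in the other gated cells in both libraries (0.177% of the genes compared). They were *slc43a2a*, a neutral amino acid transporter, *cxcr4a*, a chemokine receptor, *neu3.2*, a sialidase, *klhl24b*, *gpn2*, a GPN-loop GTPase, and *slc16a6b*, of the monocarboxylate transporter family. Within 1 library, 88 genes (2.59%) in cut and 37 (1.09%) in uncut were over 2-fold higher, and at 1.5-fold 78 genes (2.3%) were higher and 36 (1.06%) lower in both. Applying the rule to thinned cells gave 2 such genes of 770. Removing every cell with at least 0.1% of its UMIs from the basal, mesenchymal, myeloid, erythrocyte and muscle lists left 33 remaining cells. Of the 1104 genes then compared, 0 were such genes. Those lists include *and2*, *cebpa* and *krtt1c19e*, so the 118 remaining cells removed were not shown to be of other types. Fewer genes held 200 UMIs in both settings. In thinned cells none of the 6 was over 2-fold higher in both libraries. *klhl24b* is related to human KLHL24, a ubiquitin ligase adaptor that acts on a keratin in human skin. Its level was 312 UPM in cut and 295 UPM in uncut remaining cells, against 139 and 131 UPM in the other gated cells (log2 ratio 1.17, interval 0.95 to 1.38, and 1.18, interval 0.90 to 1.44), and its log2 ratios were 0.99 and 0.57 in thinned cells.

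*slc43a2a* stood at 129 UPM in cut and 123 UPM in uncut remaining cells, against 53.1 and 49.95 UPM in the others, a log2 ratio of 1.28 (0.93 to 1.63) and 1.3 (0.87 to 1.72). In thinned cells it had a UMI in 24.0% and 20% of remaining cells, against 10.98% and 10.1% of other gated cells and 6.59% and 2.52% of the mesenchymal background. *cxcr4a* differed more between libraries, at 63.4 and 85.7 UPM against 13.0 and 36.5 UPM. For *cxcr4a* and *neu3.2* the background cells were not clearly lower. After thinning *neu3.2* was found in 15.6% of cut and 13.3% of uncut remaining cells, against 8.79% and 20.8% of background cells, and *cxcr4a* in 13.5% and 13.3% against 5.49% and 6.6%.

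The lower genes were more numerous, 21 of 3392 (0.619%), and 3 of them, *rhcga*, *rhbg* and *krt99*, were genes of the rule itself. The rest were not free of the rule, as genes that go with *krt99* or the Rh genes across cells are lowered by the same limits. Among the rest, the fucosyltransferase gene *fut9d* had 5 UMIs in the remaining cells and 1963 in the others (log2 ratio -5.83 in cut and -6.27 in uncut). The keratin genes *krtt1c19e* (-3.28 and -2.95) and *krt17* (-1.92 and -2.23) followed, together with *krt15*, which had 3 UMIs in all remaining cells against 2332 in the others. Against *krt99* only cells alone *krtt1c19e* was higher, with log2 ratios of 3.93 in cut and 2.69 in uncut. Few genes were over 2-fold lower than both the *krt99* only and the Rh only cells, 2 of 3392 (0.059%). *ponzr3*, of a cysteine-rich membrane protein family, had 10 UMIs against 900. Genes of DNA replication were among the lower ones, with *mcm2*, a subunit of the replicative helicase, at 15 UMIs against 328 and *rrm2*, a ribonucleotide reductase subunit, at 5 against 232. The uncut log2 ratio of *mcm2*, -2.53, had an interval of -7.86 to 0.007, which included 0. Of the *rrm2* UMIs in uncut other gated cells, 87 of 96 lay in 1 cell. *aep1*, an aerolysin-like protein, was at 511 and 487 UPM, against 1582 and 1386 UPM.

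Keratins formed the broadest difference from the pooled other gated cells, but their summed share was near that of the *krt99* only cells. Apart from *krt99*, 9 of 12 keratin genes compared were lower than in the pooled others in both libraries, against 11.5% of all genes. Of them 4 were past 2-fold, against 0.619% of all genes. Their median log2 ratio was -1.25 in cut and -0.76 in uncut cells, against 0.23 and 0.14 over all genes. Keratin UMIs made up 9.78% of cut and 11.6% of uncut remaining cells, against 17.1% and 16.4% of the other gated cells. In *krt99* only cells they made up 10.6% and 11.4%, and in Rh only cells 18.4% and 19.9%. *krt4*, a major superficial keratin, was found in all 151 remaining cells at 34517 UPM in cut and 44748 UPM in uncut, against 60733 and 60129 UPM. *krt5* stood at 1981 and 2106 UPM, against 5248 and 3872 UPM, and *cyt1l* at 14489 and 19982 UPM, against 33330 and 31000 UPM. Depth moved with the size of this difference, since with *krt99* included the medians were -1.29 and -0.88, and -0.65 and -0.13 when the rule was applied to thinned cells. For *krt5* in uncut cells the log2 ratio turned to 0.48 without cells holding other types' markers. *krt97* and *krt8* did not share the pattern, with log2 ratios of 0.56 and 0.08 for *krt97* and of 0.55 and -0.15 for *krt8*, and each of these 4 ratios changed sign in at least 1 alternative setting. Zebrafish keratins include near-identical copies such as *cyt1* and *cyt1l*, so the split of UMIs between copies is uncertain.

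The other listed groups moved less. Cell division genes had median log2 ratios of -0.86 in cut and -0.52 in uncut cells, with 8 of 11 lower in both libraries, against 11.5% of all genes. Of them 4 were past 2-fold, against 0.619% of all genes. Of 37 proteasome genes, 29 were higher in both libraries, against 51.8% of all genes. Their medians were 0.36 and 0.16, beside 0.23 and 0.14 over all genes. S100 genes, small calcium-binding proteins, were lower for 5 of 7, and annexins, which bind membranes at calcium, for 5 of 7 apart from the gate gene *anxa1c* (medians -0.18 and -0.44). Immediate early genes, whose transcription answers stimuli within minutes, had medians of 0.12 and -0.42. Of the aryl hydrocarbon receptor pathway, 8 genes could be compared. Their medians were 0.30 and 0.15, and *cyp1a* alone passed 2-fold in the cut library, with log2 ratios of 1.98 in cut and 0.71 in uncut.

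Because the other gated cells mix 2 large classes, and the mix differed between the libraries, the remaining cells were set against the *krt99* only and the Rh only cells separately. In both libraries 34 genes (1% of those compared) were over 1.5-fold lower than in *krt99* only cells and over 1.5-fold higher than in Rh only cells, and 3 genes (0.0884%) showed the opposite order. The rule itself set *krt99* among the 34 and *rhbg* among the 3, so 33 and 2 were other genes. These are not free of the rule, as genes that go with *krt99* or the Rh genes across cells are ordered by the same split. Many *krt99* only and Rh only cells also met the rule when thinned. Whether a mix of such cells gave the middle values was not tested. *krt8* stood at 2837 UPM in cut and 2859 UPM in uncut remaining cells, against 8243 and 7531 UPM in *krt99* only cells and 427 and 297 UPM in Rh only cells. *krt97* was at 6668 and 9119 UPM, against 16138 and 17088 UPM and against 1676 and 1712 UPM. The transcription factor genes *prdm1a*, *msx2a* and *sox3* and the scaffold gene *akap12b* had the same order, the last with 125 and 92.0 UPM against 317 and 355 UPM and against 5.11 and 5.14 UPM. In the opposite order, *krtt1c19e*, best known as a basal keratin, was at 490 and 387 UPM, against 32.1 and 59.97 UPM in *krt99* only cells and 6047 and 6315 UPM in Rh only cells. Its median over remaining cells was 0 UPM in cut and 60.5 UPM in uncut, and 1 cell gave 27.4% and 36.8% of its UMIs. In the subgroups described below, 397 of its UMIs lay in subgroup 5 and 175 in the rest. For *akap12b*, 114 lay in subgroup 2 and 29 in the rest. The sums of these 2 genes do not give the level of a typical remaining cell. *ahcy*, which clears S-adenosylhomocysteine, was at 229 and 228 UPM, against 80.2 and 82.0 UPM and against 468 and 567 UPM.

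Only *slc43a2a* was over 2-fold higher than both classes in both libraries (1 gene, 0.0295%). The double-carrying cells were not part of this comparison. Its log2 ratios were 2.08 in cut and 1.03 in uncut over *krt99* only cells, and 1.15 and 1.45 over Rh only cells. The 1.03 lay close to the 2-fold limit. Against all other gated cells, the ratio of *slc43a2a* ran from 0.24 to 1.73 in cut and from 0.91 to 1.46 in uncut over the settings tried. At 1.5-fold there were 12 such genes (0.354%), among them *cyp1a*, *abca1a*, a lipid transporter, and *ufd1l*, a cofactor of protein degradation. The log2 ratios of *cyp1a* were 4.27 and 1.55 over *krt99* only cells and 1.85 and 0.61 over Rh only cells, and the interval of the last, -0.05 to 1.25, included 0. *krt18a.1* and *jac10* were over 2-fold lower than both classes (0.059%), with 8 and 13 UMIs in the remaining cells. *jdp2b*, which encodes a repressor of AP-1 factors, was lower than both at 1.5-fold (0.118% of genes), at 128 and 33.5 UPM against 225 and 112 UPM and against 328 and 102 UPM.

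Keratin UMIs made up 10.6% in cut and 11.4% in uncut *krt99* only cells and 18.4% and 19.9% in Rh only cells, beside the 9.78% and 11.6% of the remaining cells. This sum hid differences between genes. The median log2 ratio of the 12 keratins other than *krt99* was 0.08 in cut and -0.25 in uncut over *krt99* only cells, with genes on both sides of 0 in each library. Over Rh only cells it was -1.49 and -1.29. Over all genes the medians were 0.03 and -0.05 over *krt99* only cells and 0.29 and 0.33 over Rh only cells. The 7 annexin genes other than *anxa1c* had medians of -0.71 and -0.95 over *krt99* only cells and 0.08 and 0.29 over Rh only cells. Immediate early genes had medians of -0.55 and -0.88 over *krt99* only and 0.27 and 0.11 over Rh only cells. Tight junction genes outside the gate had medians of -0.26 and -0.37 over *krt99* only and 0.62 and 0.52 over Rh only cells. Cell division genes had medians of 0.04 and -0.16 over *krt99* only and -1.05 and -1.15 over Rh only cells.

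**Figure D3:**
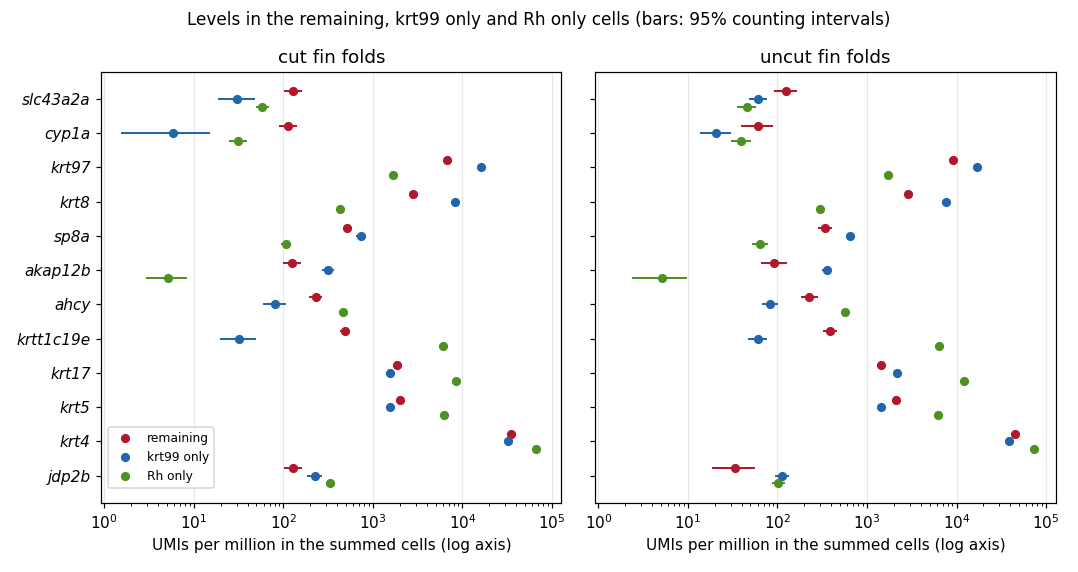
UPM (log axis) of 12 genes in the remaining, *krt99* only and Rh only cells of the cut (left) and uncut (right) library, with 95% counting intervals. *krt8*, *krt97* and *akap12b* lie between the classes with *krt99* only cells on top, *krtt1c19e* and *ahcy* lie between with Rh only cells on top, and *slc43a2a* is highest in the remaining cells.

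The remaining cells were not uniform. Grouping the 151 cells by their own profiles gave 5 subgroups, a division chosen after the data were seen and given as a description. Subgroup 1 held 34 cells (19 cut and 15 uncut) and was led by *si:ch211-140m22.7* and *krt96*, with *krt97* at 13136 UPM and *and2* at 4482 UPM. Subgroup 2 held 33 cells (25 and 8). Its 12 leading genes included the transcription factor genes *dlx2b*, *tbx1*, *sp6*, *prdm1a* and *sp8a*. The others were *akap12b*, *krt8*, *ptgs2b*, *pkhd1l1*, *trpm4a*, *zgc:123295* and *zgc:158343*. There *akap12b* stood at 575 UPM and *krt8* at 10791 UPM, while *krt4* was at 12499 UPM and keratins took a median of 4.32% of UMIs per cell. Subgroup 3 held 33 cells (23 and 10) and was led by *cad*, which starts pyrimidine synthesis, with *ccng1*, a cyclin gene, and *cdkn1a*, a cell cycle inhibitor, also among its leading genes.

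Subgroup 4 held 28 cells, 26 of them cut, and 35.7% of its cells had under 3000 UMIs. Its leading genes were *ctsl.1*, a lysosomal protease, the chaperone genes *dnajb1b* and *hsp90b1*, and *ddit3*, a transcription factor of the stress response, and *cyp1a* ranked among its first 8 at 268 UPM. Of its *ctsl.1*, part came from the 4 cells described above. They held 80 of the 185 cut *ctsl.1* UMIs, and without them the cut remaining cells stood at 139 UPM, against 14.6 UPM in uncut remaining cells. Subgroup 5 held 23 cells (13 and 10), was led by *krtt1c19e* at 1885 UPM with *krt17* and *ahcy*, and had the highest keratin share, a median of 16.5% per cell.

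The leading genes of these subgroups were also found outside the remaining cells. At least 5 of the 10 leading genes of subgroup 2 had UMIs in 47.9% of cut and 43.7% of uncut *krt99* only cells, against 2.92% and 2.15% of Rh only cells. For subgroup 3 the order was the other way, with 21.1% and 10.4% of *krt99* only cells and 50.4% and 61.3% of Rh only cells, and Rh only cells are the deeper class. The remaining cells themselves gave 21.7% in cut and 13.3% in uncut for subgroup 2, and 23.6% and 31.1% for subgroup 3. For subgroup 4 the shares were 24.5% and 13.3% of remaining cells. They were 18.3% and 17.0% of *krt99* only, 22.1% and 20.4% of Rh only, and 17.4% and 31.0% of double-carrying cells. The division was moderately stable, with an adjusted Rand index of 0.74 at resolution 0.5, 0.56 at resolution 1.2, 0.77 with another random seed and 0.64 when cut cells were grouped alone.

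**Figure D4:**
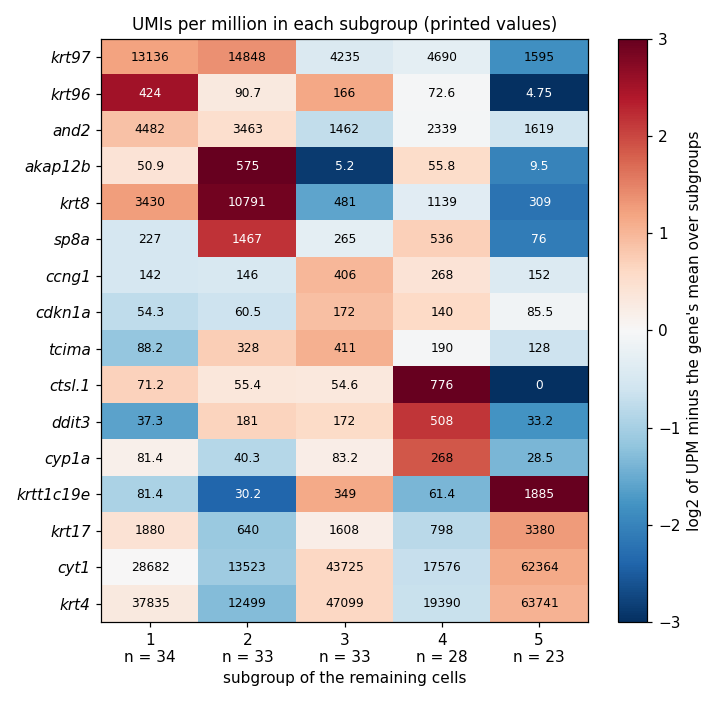
UPM of 16 genes in the 5 subgroups of the remaining cells, printed in each cell, with colour for the log2 value minus the gene's mean over the subgroups. *akap12b* and *krt8* peak in subgroup 2, *ctsl.1*, *ddit3* and *cyp1a* in subgroup 4 and *krtt1c19e* in subgroup 5.

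The genes most like *cyp1a* over the 141 remaining cells with at least 2000 UMIs, thinned to that depth, were *hspd1* (Pearson r = 0.36), a mitochondrial chaperone, *naga* (0.33), a lysosomal glycosidase, *nfe2l3* (0.30), *zgc:63587* (0.27) and *niban1a* (0.26). *cyp1a* had a UMI in 18 of these cells, so the likeness rests on few cells of 2 libraries and is weak. No such ranking could be made for *tfa*, which had no UMI after thinning in 96 cut and 45 uncut remaining cells (upper limits 3.12% and 6.67%).

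Cut and uncut remaining cells were then compared over 678 genes with at least 200 UMIs in them. With 1 library per condition, amputation cannot be told apart from how each library was dissociated and captured. In cut cells 18 genes were over 2-fold higher (2.65%) and 3 lower (0.442%), at a median log2 ratio over all genes of 0.08. Among the other gated cells of the same libraries, the same 678 genes gave 4 higher (0.59%) and 7 lower (1.03%). At 1.5-fold there were 61 higher (9%) and 19 lower (2.8%) in the remaining cells, with 23 (3.39%) and 34 (5.01%) in the others. The remaining cells and the other gated cells come from the same 2 libraries, so the values are set side by side. The remaining cells held 789168 cut and 478140 uncut UMIs, against 4293446 and 4464328 in the others, so their ratios carry more counting error. The class make-up of the others also differed between libraries. These counts therefore do not measure which cells changed more.

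The higher genes included transcription factors of the early response. *cebpb* gave 439 UMIs in cut and 88 UMIs in uncut remaining cells (556 and 184 UPM), a log2 ratio of 1.60 (1.26 to 1.94), with 0.61 (0.51 to 0.71) in the other gated cells. *junbb*, an AP-1 subunit, was at 606 and 203 UPM, a log2 ratio of 1.58 (1.26 to 1.91), with 0.63 in the other gated cells. *jun* was at 531 and 236 UPM (1.17, interval 0.86 to 1.48), while the other gated cells stood at 375 and 374 UPM (0.00). Classes within the other gated cells differed, as *jun* gave -0.18 within *krt99* only and 1.07 within Rh only cells. *ddit3* was at 208 and 98.3 UPM (1.08) in the remaining cells, with -0.19 in the others.

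Other higher genes served growth signalling, the cytoskeleton and metabolism. *phlda2*, a pleckstrin homology domain protein, was highest in ratio of the 678 genes, at 428 UPM in cut and 140 UPM in uncut remaining cells (1.61, interval 1.23 to 2.01). *elovl7b*, a fatty acid elongase, was at 408 and 134 UPM (1.61), and gave 1.21 in the other gated cells too. *hbegfa*, an EGF receptor ligand, was at 269 and 109 UPM (1.3, with 0.43 in the others). *ca2*, the cytosolic carbonic anhydrase, was at 1091 and 448 UPM (1.29, interval 1.07 to 1.51, with 0.38 in the others). *tuba8l*, an alpha-tubulin, was at 774 and 301 UPM (1.36, with 0.70). *sp9*, a transcription factor gene of the apical cap list, was at 314 and 130 UPM (1.28, with 0.06). The values in the others cover all other gated cells, whose class make-up differed between libraries, and are not split by class here. Within single classes the ratios can differ from them, as those of *jun* did. Without the 4 cells with apical cap or myeloid UMIs, 17 genes were higher and 4 lower in all.

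Depth and subgroup make-up moved with the comparison. Among remaining cells with at least 8000 UMIs (45 cut and 31 uncut), *phlda2* and *cebpb* gave 1.95 each, *junbb* 1.42 and *elovl7b* 1.65, and 11 genes in all were over 2-fold higher. Without subgroup 4, which was nearly all cut, 10 genes were higher and 5 lower. Then *jun* and *ddit3* gave 0.76 each, *tuba8l* 0.91 and *hbegfa* 0.99, all under 2-fold, while *phlda2* gave 1.69, *junbb* 1.56, *elovl7b* 1.54 and *cebpb* 1.5. When the rule was applied to thinned cells, *elovl7b* gave 1.83 and *tuba8l* 1.09, but *phlda2* 0.86, *cebpb* 0.81, *junbb* 0.61, *jun* 0.49, *sp9* 0.35 and *ddit3* 0.01. Without subgroups 2 and 4, 5 were higher and 6 lower.

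In cut remaining cells the immediate early list was higher as a group. All 13 of its compared genes lay above 0, against 62.1% of all genes, and 5 of them were past 2-fold, against 2.65% of all genes. Their median was 0.79, with 0.50 in the other gated cells, whose class make-up differed between libraries. The list took 0.727% of UMIs in cut and 0.411% in uncut remaining cells. It took 0.673% and 0.367% in Rh only cells and 0.9996% and 0.744% in *krt99* only cells, so both classes were higher in cut too. The lists that follow are set against all other gated cells, not split by class. All 14 proteasome genes were above 0 at a median of 0.64, with 0.49 in the others, and *psmb6* (0.85) and *psma3* (0.84), both of the core particle, led them. The 6 tight junction genes had a median of 0.36, with 0.11 in the others, and *f11r.1*, a junctional adhesion molecule, gave 1.07 (0.66 to 1.48), with 0.14. Of 8 targets of the oxidative stress factor NFE2L2, 7 were above 0 at a median of 0.42, with 0.19, led by the glutathione transferase genes *mgst3b* (1.01, interval 0.73 to 1.29) and *gstp1* (0.79). The 4 inflammasome and cytokine genes were all above 0, at a median of 0.53 in remaining and 0.52 in other gated cells. Cytosolic ribosomal protein genes had a median of -0.01.

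Genes lower in cut remaining cells were few. *col1a1a*, a collagen I chain, was at 156 UPM in cut and 730 UPM in uncut remaining cells (-2.23, interval -2.54 to -1.93) and gave -2.89 in the other gated cells. A few cells set its size, as it gave -3.18 without the 4 cells with apical cap or myeloid UMIs, where 61 of its 123 cut UMIs remained, and -1.38 without the 1 called doublet, where 188 of its 349 uncut UMIs remained. At 8000 or more UMIs per cell it gave -3.91. *si:dkey-7c18.24* was at 108 and 291 UPM (-1.43) but had UMIs in 10 cut and 9 uncut cells only, with -0.04 in the others. *rpl38* was at 1464 and 2951 UPM (-1.01, with -1.04 in the others), and ribosomal protein genes have pseudogenes and copies that make their counts uncertain. In the counts deposited separately by library it gave -0.88, under 2-fold. *rhcgl1*, an Rh gene outside the rule, was at 431 and 860 UPM (-0.997, interval -1.21 to -0.79, with -0.83 in the others). The S100 genes *icn* and *icn2* were found in every remaining cell and stood at 10920 and 20030 UPM for *icn* (-0.88) and at 15998 and 26172 UPM for *icn2* (-0.71), with -0.95 and -0.52 in the other gated cells. The S100 list had a median of -0.35, with -0.26 in the others. Of 9 keratin genes 7 lay below 0, against 257 of all 678 genes. The keratin median was -0.09, beside 0.08 over all genes, with 0.09 in the others, and *krt4* gave -0.37, with 0.01. Here too the others are not split by class.

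**Figure D5:**
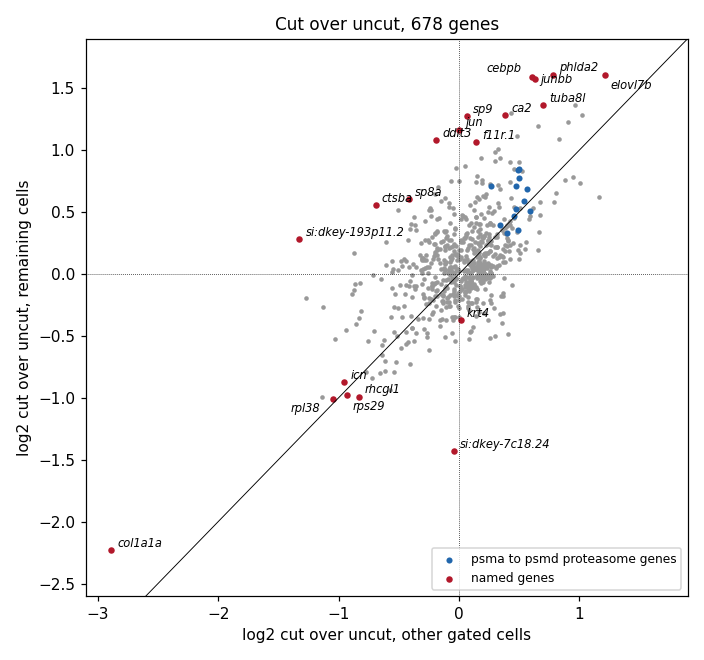
log2 ratio of cut over uncut UPM for 678 genes in the other gated cells (x) and in the remaining cells (y), with the line of equal ratios, proteasome genes in blue and named genes in red. The other gated cells are not split by class, and their class make-up differed between the libraries. *cebpb*, *junbb* and *phlda2* lie above the line near 1.6 on the y axis, *jun*, *sp9* and *ddit3* lie near 0 on the x axis, and *col1a1a* is low on both axes.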

How the data were processed

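Single cells from pooled cut and uncut caudal fin folds were captured with Chromium 3' v3.1 reagents. Per the submitters' notes the authors used Cell Ranger 3.1.0 with the danRer11 genome, and deposited raw UMI counts per gene and cell, separately by library and as 1 aggregated matrix. The aggregated counts over 15411 genes were used here: 7033569 UMIs in 762 cut cells (median 7212) and 10458222 UMIs in 878 uncut cells (median 10476.5). Aggregation had kept 95.3% of the cut UMIs and every uncut UMI. No gene had a mitochondrial name. The authors' cluster and difference lists were not used.

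Libraries were told apart by barcode match to the separate matrices. UMIs were summed per class and library and divided by the class total (UPM, UMIs per 1000000). Ratios carry exact conditional binomial intervals, shares exact Clopper-Pearson intervals. With 1 library per condition no test was made. Sums of 0 were bounded at 3 counts. Cells were thinned to 2000 UMIs for shares of cells. Subgroups came from Leiden clustering (resolution 0.8, 12 neighbours, 10 components, 1500 variable genes). The ratio, interval and thinning steps were tested on simulated data. Doublets were called with Scrublet in each library and left in. Tools were Python 3.11.15, numpy 2.4.6, scipy 1.17.1, pandas 2.3.3, scanpy 1.11.5, leidenalg 0.10.2 and scikit-learn 1.9.0.

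The members, the 36 gene lists and the comparisons were chosen with earlier results of these data known. Named genes were the 9 rule genes, the 4 given markers, up to 15 genes at each end of the comparison with other gated cells past 2-fold in both libraries, 12 at each end of cut over uncut, examples of the lists, and 5 genes most like *cyp1a*. Genes named in the comparison with single classes, as leaders of subgroups, as other cells' UMIs, and *jun* and *ddit3*, were chosen after their values were seen. Alternatives varied the gate, the UMI limit, depth, gene minimum, doublets, cells with other types' markers, scaling and fold.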

Additional observations from a re-analysis of the deposited data

Results flagged for a closer look

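Among genes with at least 200 UMIs in the remaining cells and the 4 given markers, 5 genes stood out. For them the cut over uncut log2 ratios of the remaining cells and of the other gated cells lay on opposite sides of 0, with both counting intervals excluding 0, and differed by at least 1. No difference was tested, since there was 1 library per condition. *cyp1a* gave 0.89 (0.28 to 1.55) in the remaining cells and -0.38 (-0.72 to -0.03) in the other gated cells, with -1.82 within *krt99* only and -0.34 within Rh only cells. Without subgroup 4 the remaining cells gave 0.09 for *cyp1a* (41 cut and 29 uncut UMIs). *ctsba*, a cathepsin B gene, gave 0.56 and -0.69, with -0.45 and -0.67 within the 2 classes. *si:dkey-193p11.2* gave 0.28 and -1.33, with -1.79 and -1.01. The transcription factor gene *sp8a* gave 0.60 and -0.41, but 0.19 within *krt99* only and 0.74 within Rh only cells, and the linker histone gene *histh1l* gave 0.51 and -0.50, with -0.23 and 0.04. Among the other gated cells the class make-up differed between libraries, with 71 *krt99* only, 240 Rh only and 23 double-carrying cells in cut and 135, 93 and 58 in uncut fin folds.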

How the results depend on the processing

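Directions held in most settings, though many of the ratios were chosen as extremes of these data, and sizes often moved. Of 1543 gene values in the other settings, 1084 lay inside the main counting interval, 455 outside it, and 4 reversed. Of the shares, counts and list medians, 151 values stayed within the limits used and 71 moved. Of 97 gene ratios, 61 were past 2-fold, and 57 of those kept 1 sign in every setting that gave a value, while 9 values in 3 settings could not be given. The 4 past 2-fold that turned sign were *slc16a6b* in uncut cells thinned to 2000 UMIs (-1.25), *cxcr4a* (-0.19) and *krtt1c19e* (0.62) in uncut cells without those holding 0.1% of other types' markers, and *apoeb* cut over uncut without subgroups 2 and 4 (-1.63, on 3 and 8 UMIs). The filter on other types' markers counted *krtt1c19e* itself, so the turn of *krtt1c19e* under it, on 14 and 78 UMIs, is no check. It also counted *and2* and *cebpa*, the main UMIs of the remaining cells on the mesenchymal and myeloid lists. Among the smaller ratios, 21 values of 13 ratios turned sign, *krt97* and *krt8* most often. Thinning moved the most. Shares of all cells were 37.8% cut and 24.0% uncut, shares of gated cells 61.0% and 64.1%, 2 genes were higher and 6 lower than in other gated cells of 770 then compared, 3 were higher in cut cells, the immediate early median was 0.46 and the keratin medians were -0.65 and -0.13. With no UMI of *krt99* or the Rh genes allowed, shares were 9.19% and 2.62% of all and 15.9% and 6.95% of gated cells, 5 genes were lower in cut cells, and the immediate early and NFE2L2 medians were 1.27 and 0.66. With fewer than 4 UMIs allowed, shares were 24.5% and 11.8% of all and 42.5% and 31.4% of gated cells, 7 genes were lower in cut cells and keratin medians were -0.98 and -0.60. A gate of 0.1% gave 5 genes lower in cut cells and a cut keratin median of -1.39. A gate of 0.4% gave 11.4% of cut cells and keratin medians of -1.40 and -0.63. Without cells holding other types' markers, shares of all cells were 17.6% and 9.52%, 0 genes were higher and 9 lower than in other gated cells of 1104 then compared, 10 were higher in cut cells, and the immediate early, NFE2L2 and cut keratin medians were 1.21 (1 gene), 0.76 and -0.84. Cells with at least 4000 UMIs gave 18.5% of cut gated cells, 5 genes lower in cut cells and a cut keratin median of -1.38, and cells with at least 8000 UMIs gave 16.4%, 11 genes higher in cut cells and -1.41.

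Counts followed the minimum and the fold by construction. With a minimum of 500 UMIs, 2 genes were higher and 11 lower than in other gated cells, 8 were higher and 1 lower in cut cells, and the uncut keratin median was -0.76. With 50 UMIs the counts were 43, 50, 85 and 11, and at 1.5-fold they were 78, 36, 61 and 19. Means over cells gave 6 genes lower in cut cells and an uncut keratin median of -0.47. Centring on the median gave 3 genes higher than in other gated cells, 7 lower in cut cells and keratin medians of -1.52 and -1.02, and leaving out the top cell of each gene a cut keratin median of -1.45. Without subgroup 4, 10 genes were higher and 5 lower in cut cells. Without subgroups 2 and 4, 37 genes were lower than in other gated cells, 5 were higher and 6 lower in cut cells, the S100 median was -0.053 and keratin medians were -1.02 and -1.04. The separate matrices, doublet removal and removal of the 4 cells with apical cap or myeloid UMIs moved no count or list median beyond the limits used. Among gene ratios of cut over uncut, the separate matrices moved *rpl38* (-0.88), *rps29* (-0.84), *icn* (-0.79) and *icn2* (-0.65) outside their main intervals. The 8000 UMI, subgroup and 4-cell settings were chosen after seeing the data. No paired analysis was possible because each condition had 1 library. Other causes of these shifts were not tested.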
